A study of Mus musculus with 24 samples.

Results

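The strain difference in liver gene expression on a high-fat diet was measured in 13 mice, 1 RNA-seq library each, out of 24 libraries in the series. All 6 libraries labelled 129S1/SvImJ and high-fat diet were set against all 7 labelled C57BL/6J and high-fat diet, and every gene that passed a filter on low counts was tested. 129S1/SvImJ and C57BL/6J are inbred mouse strains, so all mice of a strain carry nearly the same genome. The series title names the genetics of TCF7L2 binding and open chromatin in mouse liver, and the other 11 libraries are of the same strains on chow (5 of 129S1/SvImJ and 6 of C57BL/6J). No transgene, deletion or drug is named for any group, and the labels used here give neither the age of the mice nor the diet's composition or duration. The mouse identifiers put the 129S1/SvImJ mice on high-fat diet in 2 sets (replicates 1 to 3 and 4 to 6) and the C57BL/6J mice in 2 others (replicates 1 to 4 and 5 to 7), and whether mice of a set share a cage or litter is not given in the labels. Each set holds mice of 1 group, so no value within a set could be had, and the tests below treat the mice as independent, which makes p-values too small if mice of a set are alike. Since every comparison below is between strains, all loci at which the strains differ were compared at once.

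A liver that receives more fat than it burns or exports stores it as triglyceride in lipid droplets. The nuclear receptor PPARgamma switches on genes of fatty acid uptake and droplet coating in fat cells and in fatty liver, SREBP-1c drives the synthesis of fatty acids, and SREBP-2 drives that of cholesterol when sterols in the cell are low. C57BL/6J is widely used because it gains weight and develops fatty liver on such diets, and 129 substrains are commonly described as more resistant. Hepatocytes also secrete most of the proteins of blood plasma, including clotting factors and complement, while Kupffer cells, stellate cells and lymphocytes make up much of the rest of the organ.

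Depth overlapped between the strains, with totals of 6707013 to 13035534 counts in the 129S1/SvImJ libraries and of 8294723 to 13124881 in those of C57BL/6J (exact two-sided permutation test on the means, p = 0.958). The 36 pairs of libraries within a strain all differed by more than counting noise, with chi-square values of 6 to 72.4 times their degrees of freedom. In a principal component analysis of the 13 libraries the first component held 58% of the variance, and its scores were -55.5 to -38.7 in 129S1/SvImJ and 25.2 to 54.7 in C57BL/6J. C57BL/6J replicate 5 stood apart from its group on the second component (11.1% of the variance, a score of 40) and was the one high-fat library with 1 CPM or more of the adipocyte genes Adipoq (1.23 CPM), Lep (3.28) and Plin1 (1.56). CPM are counts scaled to a common library size, with sizes adjusted by edgeR. The small nuclear RNA Rn7sk ran from 2623 to 5081 CPM in 129S1/SvImJ and from 2162 to 4128 CPM in C57BL/6J. All 9 hepatocyte markers passed the filter, none of 6 skeletal muscle genes did, and Xist stayed at or under 0.626 CPM with Ddx3y at 106 to 134 CPM, as in male tissue. In whole liver, fewer cells of a type and less RNA per cell cannot be told apart.

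Of 14533 genes tested, 5375 (37.0%) differed between the strains at an edgeR adjusted p under 0.05, the threshold for a called gene. In 129S1/SvImJ 2600 genes (17.9%) were higher and 2775 (19.1%) lower. These are the shares against which the counts of gene groups below should be read. A gene near silent in 1 strain passed the filter through the other and could be called on 1 side only. Differences are given as log2 of 129S1/SvImJ over C57BL/6J. The genes that were lower in 129S1/SvImJ differed by more: 901 of them (6.2% of the genes tested) differed over 2-fold, against 444 (3.06%) of those that were higher, and the median size was 0.718 against 0.418 on the log2 scale. Reads of both strains were placed on mm10, a C57BL/6J genome. Whether 129S1/SvImJ reads were lost where its sequence differs was not tested. For 1136 of the higher and 1035 of the lower genes no library of one strain reached the range of the other. Lack of overlap, called or not, was found for 7.88% of all genes upward and 7.18% downward.

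**Figure D1:**
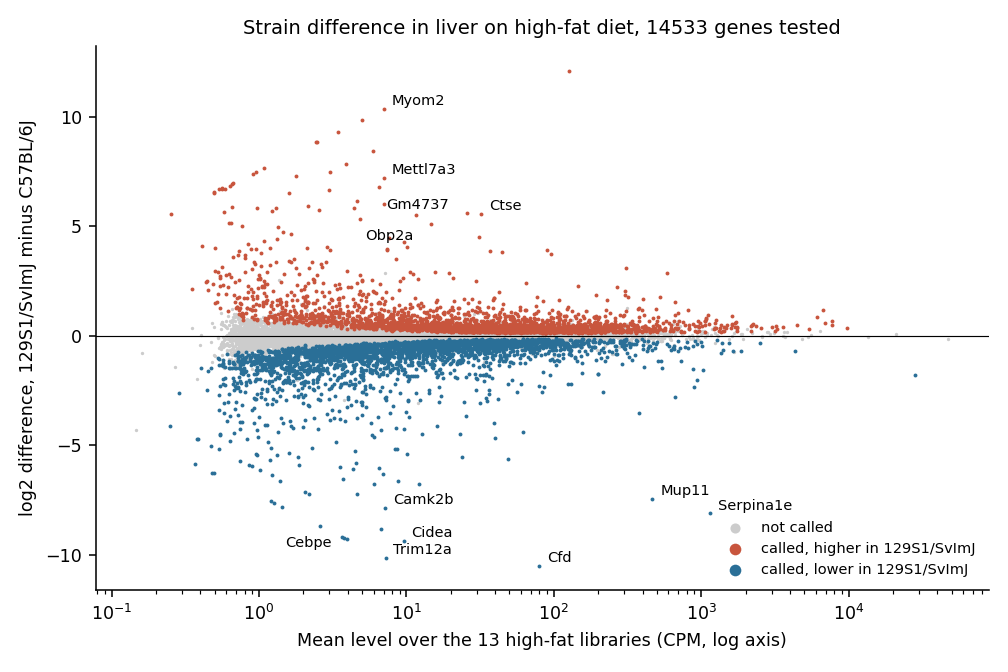
Log2 difference between the strains on high-fat diet (vertical axis) against mean level over the 13 libraries (horizontal axis, CPM, log scale), 1 point per gene. Called genes are red where higher (2600) and blue where lower (2775) in 129S1/SvImJ, and the labelled protein-coding genes include Cfd at -10.48 and Myom2 at 10.34, fitted values that depend on a prior count where a strain has few or no counts.

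Gene groups with many members on one side were interferon-stimulated genes, fatty acid and cholesterol synthesis, macrophage, lymphocyte and matrix genes on the lower side, and ribosomal protein, complement and coagulation and amino acid breakdown genes on the higher side. The bars of the plot of gene lists give these shares beside those of all genes.

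**Figure D2:**
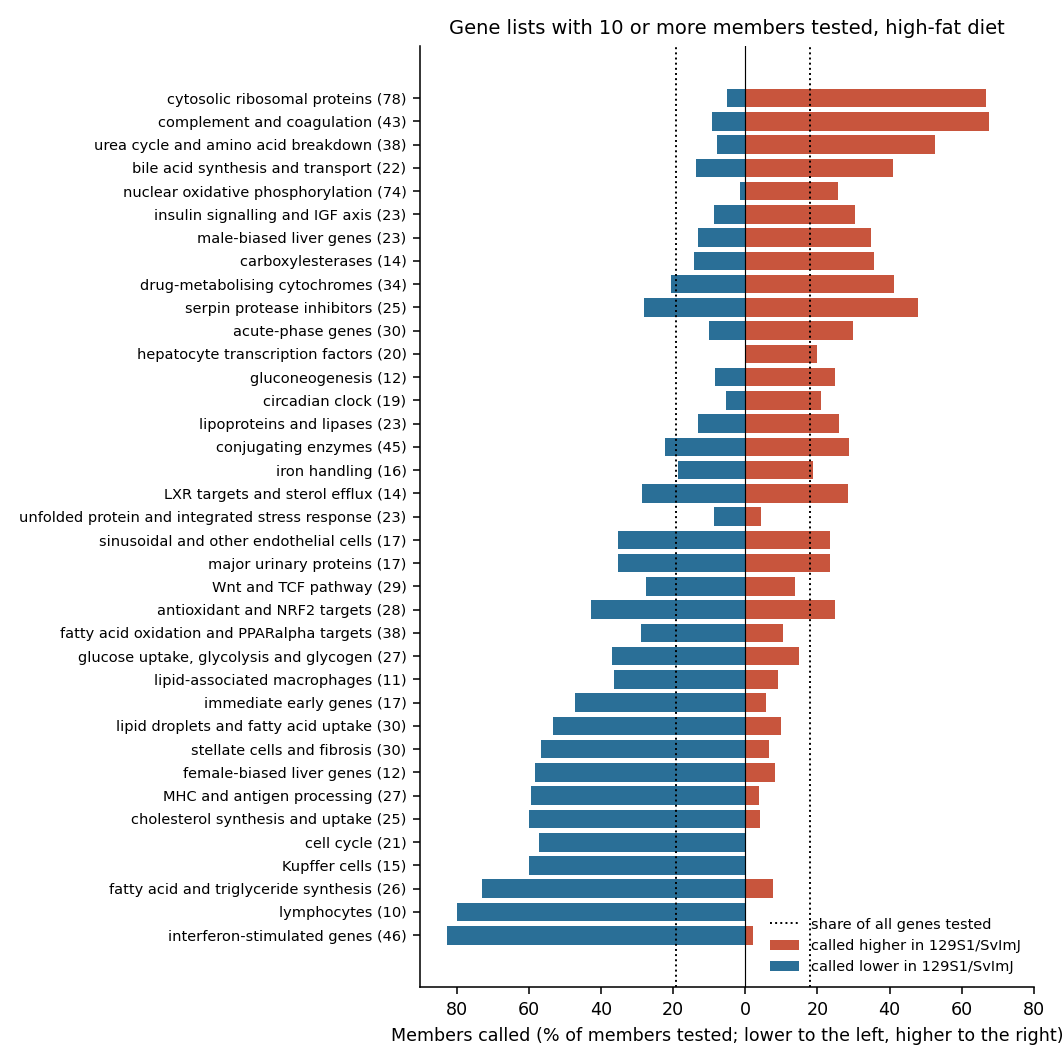
Share of the tested members of each gene list that were called lower (blue, to the left) or higher (red, to the right) in 129S1/SvImJ on high-fat diet, in percent, for lists with 10 or more tested members (their number in parentheses). The lists of pericentral and periportal hepatocyte genes are left out. Dotted lines mark the shares of all genes tested (19.1% lower, 17.9% higher): interferon-stimulated genes reach 38 of 46 members lower, and ribosomal proteins 52 of 78 higher.

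Genes of lipid droplets and fatty acid uptake were lower in 129S1/SvImJ: of 30 tested members 16 were lower, 3 were higher and the remaining 11 were not called, with a median of -0.50 against 0.005 over all genes. On chow 12 members were lower and 4 higher, with a median of -0.48. A test of the difference between the diets called 0 of the 30. Pparg, the gene of PPARgamma itself (ENSMUSG00000000440.12, chromosome 6, 115360951 to 115490399, mm10), read 1.89 to 5.95 CPM (median 4.21) in 129S1/SvImJ and 16.1 to 52.5 CPM (median 25.1) in C57BL/6J. The groups did not overlap, and the log2 difference was -2.76 ± 0.32 (SE, edgeR adjusted p = 5.85e-07). Cd36, which takes up fatty acids at the plasma membrane (ENSMUSG00000002944.15, chromosome 5, 17781690 to 17888801), read 38.7 to 52 CPM (median 43.1) in 129S1/SvImJ and 83 to 373 CPM (median 185) in C57BL/6J, a difference of -2.21 ± 0.27 (SE, edgeR adjusted p = 1.23e-06). Every 129S1/SvImJ mouse lay below every C57BL/6J mouse, and the C57BL/6J mice spread over a wider range than the 129S1/SvImJ mice.

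Cidec, which encodes a protein that fuses lipid droplets (ENSMUSG00000030278.11, chromosome 6, 113424634 to 113435760), read 1.31 to 3.69 CPM (median 1.41) in 129S1/SvImJ and 14.7 to 208 CPM (median 84.7) in C57BL/6J. The groups were apart, with a difference of -5.61 ± 0.59 (SE, edgeR adjusted p = 2.12e-07), and without C57BL/6J replicate 5 it was -5.25 (adjusted p = 1.99e-07). Fitm1, a gene of droplet formation (ENSMUSG00000022215.6, chromosome 14, 55575617 to 55576954), read 4.59 to 15 CPM (median 8.56) in 129S1/SvImJ and 23.9 to 58.3 CPM (median 54) in C57BL/6J and differed by -2.46 ± 0.22 (SE, edgeR adjusted p = 6.9e-09). Plin2, the main droplet coat protein of hepatocytes (ENSMUSG00000028494.12, chromosome 4, 86648386 to 86670060), read 202 to 533 CPM (median 282) in 129S1/SvImJ and 444 to 1156 CPM (median 604) in C57BL/6J. Here replicate 3 of 129S1/SvImJ reached into the C57BL/6J range, and the difference was -1.17 ± 0.28 (SE, edgeR adjusted p = 0.00203). Fabp2, a fatty acid binding protein (ENSMUSG00000023057.5, chromosome 3, 122895072 to 122899506), differed by -1.08 ± 0.13 (SE, edgeR adjusted p = 2.75e-07). The 3 members that were higher were Vldlr, a lipoprotein receptor (1.54), Hsd17b11, a droplet-bound enzyme (0.38), and Slc27a5, a fatty acid transporter that also activates bile acids (0.22).

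Several genes best known from fat tissue belonged to the widest differences. Cfd, the gene of the complement protease adipsin (ENSMUSG00000061780.6, chromosome 10, 79890853 to 79892655), read 0 to 0.232 CPM (median 0.0443) in 129S1/SvImJ and 41.1 to 256 CPM (median 166) in C57BL/6J. The 6 counts over all 129S1/SvImJ libraries against 11976 over the C57BL/6J libraries gave a ratio of 1674, with a 95% counting interval of 769 to 4563. Cidea, a droplet protein of brown fat and fatty liver (ENSMUSG00000024526.8, chromosome 18, 67343604 to 67367785), read 0.119 to 39.9 CPM (median 21.4) in C57BL/6J and 0 to 0.0828 CPM (median 0) in 129S1/SvImJ, with 1 count in all of 129S1/SvImJ. The ratio was 1290, with a 95% counting interval of 231 to 50990. Its lowest C57BL/6J library was close to the 129S1/SvImJ value. The fitted difference was -9.38 ± 1.41 (SE, edgeR adjusted p = 5.59e-05), or -10.6 (adjusted p = 0.00182) without 129S1/SvImJ replicate 1, which held the single count. Fabp4, the adipocyte fatty acid binding protein (ENSMUSG00000062515.3, chromosome 3, 10204088 to 10208576), read 2.98 to 4.64 CPM (median 3.52) in 129S1/SvImJ and 5.08 to 24.9 CPM (median 10.5) in C57BL/6J, a difference of -1.65 ± 0.30 (SE, edgeR adjusted p = 0.000126).

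Of 15 adipocyte markers 7 passed the filter, of which 5 were lower and none higher. The defining markers Adipoq, Lep and Plin1 were under 1 CPM in 12 of the 13 libraries. Without C57BL/6J replicate 5, the exception, Cfd differed by -10.6 (adjusted p = 1.84e-08), Cidea by -9.26 (0.000129) and Fabp4 by -1.33 (9.07e-05), and 14 members of the droplet list were lower.

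Fatty acid and triglyceride synthesis differed in the same direction, with 19 of 26 tested genes lower, 2 higher and a median of -0.82. On chow 5 were lower and 2 higher (median -0.33). Acacb, the acetyl-CoA carboxylase of the mitochondrial surface (ENSMUSG00000042010.16, chromosome 5, 114146535 to 114250761), read 38.7 to 82.9 CPM (median 59.7) in 129S1/SvImJ and 253 to 567 CPM (median 313) in C57BL/6J. The groups were far apart, by -2.57 ± 0.28 (SE, edgeR adjusted p = 2.93e-07). Fasn, fatty acid synthase (ENSMUSG00000025153.9, chromosome 11, 120805846 to 120824547), read 315 to 435 CPM (median 345) in 129S1/SvImJ and 594 to 3240 CPM (median 1182) in C57BL/6J, a difference of -2.01 ± 0.31 (SE, edgeR adjusted p = 3.23e-05). Scd1, the stearoyl-CoA desaturase of liver (ENSMUSG00000037071.2, chromosome 19, 44394455 to 44407879), read 7514 to 14140 CPM (median 12750) in 129S1/SvImJ and 26200 to 69020 CPM (median 40040) in C57BL/6J and differed by -1.81 ± 0.26 (SE, edgeR adjusted p = 9.42e-06), although its near-identical relatives make its counts uncertain.

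The enzymes that lengthen and desaturate fatty acids were also lower. Elovl6, an elongase (ENSMUSG00000041220.10, chromosome 3, 129532355 to 129638495), differed by -1.69 ± 0.20 (SE, edgeR adjusted p = 4.85e-07). The neighbouring desaturase genes Fads1 (ENSMUSG00000010663.4, chromosome 19, 10182888 to 10196877) and Fads2 (ENSMUSG00000024665.7, chromosome 19, 10062765 to 10101746) differed by -1.44 ± 0.15 (SE, edgeR adjusted p = 2.79e-08) and -1.49 ± 0.16 (SE, edgeR adjusted p = 5.34e-08). For these 3 genes no 129S1/SvImJ mouse reached the C57BL/6J range. Srebf1, which encodes SREBP-1c (ENSMUSG00000020538.15, chromosome 11, 60199089 to 60222581), read 259 to 597 CPM (median 503) in 129S1/SvImJ and 589 to 947 CPM (median 744) in C57BL/6J, groups that overlapped, with a difference of -0.66 ± 0.18 (SE, edgeR adjusted p = 0.00579). The 2 members that were higher in 129S1/SvImJ were Lpin1, a phosphatidate phosphatase (1.69), and Dgat2, the last enzyme of triglyceride synthesis (0.36).

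Cholesterol synthesis and uptake had 15 of 25 tested genes lower and 1 higher, with a median of -0.58. On chow 0 were lower and 1 higher (median 0.14). Cyp51, lanosterol demethylase (ENSMUSG00000001467.5, chromosome 5, 4081145 to 4104746), read 11.7 to 15.5 CPM (median 12.4) in 129S1/SvImJ and 30.2 to 63.1 CPM (median 38.7) in C57BL/6J. The groups did not overlap, and the difference was -1.75 ± 0.17 (SE, edgeR adjusted p = 2.28e-08). Hmgcs1, the HMG-CoA synthase of the cytosol (ENSMUSG00000093930.2, chromosome 13, 119690379 to 119708260), read 32.5 to 48.9 CPM (median 41.2) in 129S1/SvImJ and 79.9 to 297 CPM (median 123) in C57BL/6J, a difference of -1.80 ± 0.30 (SE, edgeR adjusted p = 6.3e-05). Sqle, squalene epoxidase (ENSMUSG00000022351.14, chromosome 15, 59315077 to 59331192), read 0.27 to 1.02 CPM (median 0.686) in 129S1/SvImJ and 0.711 to 17.6 CPM (median 4.83) in C57BL/6J, overlapping groups with a difference of -3.24 ± 0.70 (SE, edgeR adjusted p = 0.000979). The later enzyme genes Sc5d and Tm7sf2 differed by -1.13 ± 0.14 (SE, edgeR adjusted p = 6.17e-07) and -0.54 ± 0.11 (SE, edgeR adjusted p = 0.000251).

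The 1 member of the cholesterol list that was higher was Hsd17b7, an enzyme shared with steroid metabolism (0.62), and 9 members were not called.

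For the cholesterol list a promoter motif was searched, the sterol regulatory element TCACNCCAC bound by SREBP, on both strands in the 250 bases before the RefSeq start of each gene, 1 promoter per gene. It was found in 107 of 10265 promoters (1.04%) and in 1 of the 17 members with a promoter in the table, that of Hmgcs1, and its absence from the other 16 says nothing of SREBP. The stretch around it is shown because Hmgcs1 is among the members that were lower; it lies at chr13:119690159-119690277, plus strand (RefSeq, GRCm38.p6), with the match in capitals.
Hmgcs1: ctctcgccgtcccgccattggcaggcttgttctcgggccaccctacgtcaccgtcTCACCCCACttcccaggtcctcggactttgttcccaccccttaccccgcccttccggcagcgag

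**Figure D3:**
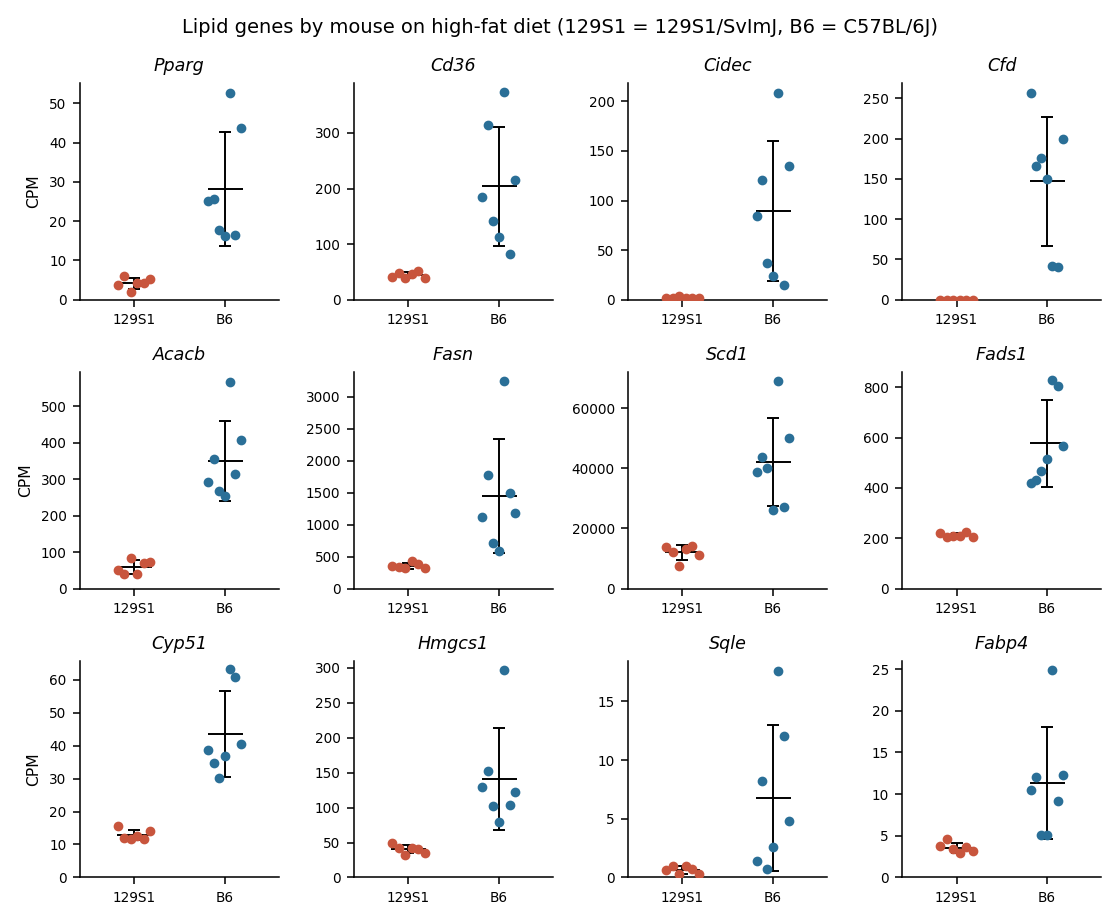
Level in CPM (vertical axes, from 0) of 12 lipid genes in each mouse on high-fat diet, with 129S1/SvImJ in red (n = 6) and C57BL/6J in blue (n = 7); black lines give the mean and SD. For all but Sqle the red points lie below every blue point, and the blue points spread more widely, as for Cidec (14.7 to 208 CPM).

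Fatty acid oxidation and PPARalpha targets were mixed, with 11 of 38 lower, 4 higher and a median of -0.09. Decr2, an enzyme of peroxisomal oxidation (ENSMUSG00000036775.12, chromosome 17, 26081208 to 26090337), read 158 to 205 CPM (median 179) in 129S1/SvImJ and 256 to 355 CPM (median 312) in C57BL/6J, a difference of -0.76 ± 0.07 (SE, edgeR adjusted p = 3.76e-09). Acaa1b, a peroxisomal thiolase with a near-identical copy, differed by -0.77 ± 0.15 (SE, edgeR adjusted p = 0.000281), and Vnn1, a pantetheinase, by -2.27 ± 0.35 (SE, edgeR adjusted p = 3.25e-05). Without C57BL/6J replicate 5 the number lower was 8. In glucose uptake, glycolysis and glycogen 10 of 27 genes were lower and 4 higher (median -0.15), with Gpi1 at -0.71 ± 0.10 (SE, edgeR adjusted p = 4.42e-06), Ldha at -0.71 ± 0.11 (SE, edgeR adjusted p = 9.68e-06), Aldoa at -0.39 ± 0.06 (SE, edgeR adjusted p = 1.71e-05) and Pkm, the pyruvate kinase outside hepatocytes, at -0.86 ± 0.17 (SE, edgeR adjusted p = 0.000353). The gluconeogenic genes Pck1 (-0.17, adjusted p = 0.626) and G6pc (0.11, 0.837) were not called by edgeR.

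Genes of bile acid synthesis and transport leaned the other way, with 9 of 22 higher in 129S1/SvImJ and 3 lower (median 0.20). Cyp7a1, the rate-limiting enzyme of bile acid synthesis (ENSMUSG00000028240.2, chromosome 4, 6265612 to 6275633), read 380 to 1048 CPM (median 721) in 129S1/SvImJ and 81.9 to 525 CPM (median 299) in C57BL/6J. The ranges overlapped, and the difference was 1.20 ± 0.37 (SE, edgeR adjusted p = 0.0137). Slc10a1, which takes up bile salts from blood (ENSMUSG00000021135.8, chromosome 12, 80953183 to 80968705), read 667 to 778 CPM (median 739) in 129S1/SvImJ and 354 to 592 CPM (median 438) in C57BL/6J, without overlap (0.69 ± 0.10 SE, edgeR adjusted p = 5.96e-06). The reductase genes Akr1c6 and Akr1d1 differed by 0.68 ± 0.08 (SE, edgeR adjusted p = 2.1e-07) and 0.75 ± 0.12 (SE, edgeR adjusted p = 3.91e-05), and Cyp2c70, which makes muricholic acids in mice and has close relatives, by 1.18 ± 0.23 (SE, edgeR adjusted p = 0.000386). Cyp8b1, which directs synthesis to cholic acid, read 199.6 to 336 CPM (median 236) in 129S1/SvImJ and 273 to 336 CPM (median 316) in C57BL/6J and was not called (-0.27 ± 0.14 SE, edgeR adjusted p = 0.129), although the adjusted p was 0.0411 without 129S1/SvImJ replicate 6. The members that were lower were the export pumps Abcc3 (-0.58), Abcb4 (-0.45) and Abcc4 (-0.75).

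Of 23 genes of lipoproteins and lipases 6 were higher and 3 lower. Apom, an apolipoprotein of HDL (ENSMUSG00000024391.7, chromosome 17, 35128997 to 35132050), read 142 to 158 CPM (median 149.8) in 129S1/SvImJ and 49.4 to 108 CPM (median 63.2) in C57BL/6J, without overlap and with a difference of 1.01 ± 0.13 (SE, edgeR adjusted p = 7.1e-07). Apoh (0.63), Apoc3 (0.56) and Apof (0.50) were higher by less, with edgeR adjusted p of 3.54e-08, 9.23e-06 and 2.23e-06. Apoa4, an apolipoprotein that rises with liver fat, read 1527 to 2047 CPM (median 1775) in 129S1/SvImJ and 322 to 4796 CPM (median 1066) in C57BL/6J. The C57BL/6J mice enclosed the 129S1/SvImJ range, and the difference was 0.13 ± 0.43 (SE, edgeR adjusted p = 0.842), or 0.71 (adjusted p = 0.127) without C57BL/6J replicate 5.

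Interferon-stimulated genes, which type I interferons switch on through the factor ISGF3, were lower in 129S1/SvImJ in 38 of 46 members, with 1 higher, 7 not called and a median of -1.17. On chow, in other mice, the count was 38 lower and 0 higher with a median of -1.12. ISGF3 binds a DNA element called ISRE, here searched as GAAA, any 2 bases and GAAA again, on both strands in the 250 bases before the RefSeq start of each gene (GRCm38.p6, 1 promoter per gene, the start nearest to that of the gene model used for the counts' identifiers). A promoter was found for 35 of the 46 members, and 20 of them (57.1%) held the motif, against 278 of the 10265 promoters of tested genes searched (2.71%). A match is a run of letters and not a measured site. The stretches around the match are shown for the 4 members with the smallest adjusted p among those with a match, a choice made after their values were seen. Capitals mark the matches, which read GAAA and GAAA or, on the other strand, TTTC and TTTC with 2 bases between, and each stretch is written in the direction of the gene.
Trim30a: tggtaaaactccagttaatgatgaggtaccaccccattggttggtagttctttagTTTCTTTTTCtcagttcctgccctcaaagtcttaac
Isg15: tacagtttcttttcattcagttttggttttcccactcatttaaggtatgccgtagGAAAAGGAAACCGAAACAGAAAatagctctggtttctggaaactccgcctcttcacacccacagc
Rsad2: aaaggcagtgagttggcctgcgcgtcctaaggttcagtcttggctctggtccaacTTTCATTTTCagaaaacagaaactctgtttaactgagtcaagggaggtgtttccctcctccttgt
Ifit1: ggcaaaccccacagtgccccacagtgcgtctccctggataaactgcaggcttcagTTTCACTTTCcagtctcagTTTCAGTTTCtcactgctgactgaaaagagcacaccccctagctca
The stretch of Trim30a, whose family restricts viruses and signalling, lies at chr7:104465194-104465284, minus strand, and the gene differed by -1.33. That of Isg15, a ubiquitin-like modifier, lies at chr4:156200832-156200951, minus strand, holds 3 overlapping matches and belongs to a gene that differed by -1.35. Rsad2, the antiviral viperin, has its stretch at chr12:26456508-26456627, minus strand and differed by -2.06, and Ifit1, which binds viral RNA, has 2 matches at chr19:34640730-34640849, plus strand and differed by -1.58. Trim30a and Ifit1 have close relatives, so their counts are uncertain.

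The 4 members of the list with the smallest p are described one by one. Oasl1, of the oligoadenylate synthetase family (ENSMUSG00000041827.15, chromosome 5, 114923240 to 114937915), read 1.56 to 3.07 CPM (median 1.94) in 129S1/SvImJ and 12.2 to 22.4 CPM (median 17.3) in C57BL/6J. Every C57BL/6J mouse was far above every 129S1/SvImJ mouse, a difference of -2.98 ± 0.22 (SE, edgeR adjusted p = 6.98e-11). Usp18, which removes ISG15 from proteins and dampens interferon signalling (ENSMUSG00000030107.10, chromosome 6, 121245906 to 121270917), read 1.35 to 2.57 CPM (median 1.69) in 129S1/SvImJ and 7.05 to 18.1 CPM (median 10.5) in C57BL/6J and differed by -2.52 ± 0.22 (SE, edgeR adjusted p = 7.92e-10). Irf7, a transcription factor that amplifies interferon production (ENSMUSG00000025498.15, chromosome 7, 141262706 to 141266481), read 6.11 to 12.4 CPM (median 10.7) in 129S1/SvImJ and 24.1 to 43.8 CPM (median 28.5) in C57BL/6J, without overlap (-1.58 ± 0.16 SE, edgeR adjusted p = 2.46e-08). Ifi27 (ENSMUSG00000064215.13, chromosome 12, 103434211 to 103440239) read 15.2 to 22 CPM (median 18.6) in 129S1/SvImJ and 34.4 to 72.3 CPM (median 52.5) in C57BL/6J and differed by -1.51 ± 0.13 (SE, edgeR adjusted p = 1.96e-09). For these 4 genes the interaction with diet was not called (edgeR adjusted p of 0.53, 0.386, 0.872 and 0.336). The exception in the list was Xaf1, a proapoptotic gene, which was higher by 0.43.

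Of 27 tested genes of MHC and antigen processing 16 were lower and 1 higher, with a median of -0.58. On chow, too, 16 were lower and 1 higher, with a median of -0.71. H2-D1, a classical class I heavy chain (ENSMUSG00000073411.11, chromosome 17, 35262730 to 35267499), read 187 to 271 CPM (median 226) in 129S1/SvImJ and 329.8 to 604 CPM (median 357) in C57BL/6J, without overlap and with a difference of -0.80 ± 0.11 (SE, edgeR adjusted p = 2.27e-06). H2-T22 (-0.63 ± 0.09 SE, edgeR adjusted p = 2.27e-06), H2-Q6 (-1.70 ± 0.21 SE, edgeR adjusted p = 6.61e-07) and H2-Q7 (-1.18 ± 0.17 SE, edgeR adjusted p = 5.02e-06) were lower too. MHC genes are near-identical to each other and highly variable between strains, and the reads of both strains were placed on mm10, a C57BL/6J genome, so their counts are uncertain. H2-T10 was the 1 member that was higher (1.04).

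Markers of macrophages, lymphocytes and stellate cells were lower in 129S1/SvImJ more often than higher, while those of endothelial cells were split. Of 17 markers of sinusoidal and other endothelial cells 4 were higher, among them the scavenger receptor gene Stab2 (0.58), 6 were lower, with Lyve1 at -1.86, and 7 were not called (median 0.06). Of 15 Kupffer cell markers 9 were lower and none higher (median -0.76). The summed level of the list ran from 319 to 602 CPM (median 505) in 129S1/SvImJ and from 480 to 916 CPM (median 560) in C57BL/6J. These ranges overlapped and their medians were close. On chow 13 of these markers were lower and 1 higher (median -1.22). C1qa, the first chain of complement C1q (ENSMUSG00000036887.5, chromosome 4, 136895917 to 136898803), read 7.32 to 15.7 CPM (median 10.8) in 129S1/SvImJ and 19.7 to 37.9 CPM (median 23.7) in C57BL/6J. The groups were apart, by -1.15 ± 0.18 (SE, edgeR adjusted p = 1.56e-05). The scavenger receptor gene Marco (ENSMUSG00000026390.7, chromosome 1, 120474538 to 120505024) read 0.18 to 1.86 CPM (median 0.427) in 129S1/SvImJ and 1.13 to 9.65 CPM (median 2.38) in C57BL/6J and overlapped, with a difference of -2.41 ± 0.54 (SE, edgeR adjusted p = 0.00122), or -3.03 (adjusted p = 0.0003) without 129S1/SvImJ replicate 5. C1qb differed by -0.96 ± 0.23 (SE, edgeR adjusted p = 0.00265) and Cd68, a lysosomal protein of macrophages, by -1.01 ± 0.24 (SE, edgeR adjusted p = 0.00141). The Kupffer markers Clec4f (-0.59), Cd163 (-0.01) and Timd4 (-0.01) were not called.

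Of 16 genes marking phagocytes that enter from blood (monocytes, their macrophages and neutrophils), 7 passed the filter, and 4 of these were lower and none higher. The median was -0.83, and on chow it was -1.39, again with 4 lower and none higher. Mpeg1, a pore-forming protein of phagocytes (ENSMUSG00000046805.9, chromosome 19, 12460779 to 12465283), read 37.7 to 97.5 CPM (median 61.8) in 129S1/SvImJ and 98.3 to 251 CPM (median 132) in C57BL/6J, without overlap (-1.11 ± 0.23 SE, edgeR adjusted p = 0.000708). Csf3r, a granulocyte receptor gene, differed by -0.83 ± 0.32 (SE, edgeR adjusted p = 0.0463), a call that ended without any one of 129S1/SvImJ replicates 1, 2, 3, 4 or 6 or C57BL/6J replicates 1, 2, 5 or 6 (adjusted p of up to 0.123). Lyz2, the lysozyme of phagocytes, differed by -0.74 ± 0.24 (SE, edgeR adjusted p = 0.0204), and its call ended without 129S1/SvImJ replicate 3 or 6 or C57BL/6J replicate 2 (up to 0.0558), so that 2 members of the list were lower in each of these 3 fits. Cx3cr1 differed by -2.11 ± 0.57 (SE, edgeR adjusted p = 0.00494), or -1.47 (adjusted p = 0.0174) without C57BL/6J replicate 5. Of 22 lymphocyte markers 10 passed, and 8 were lower and none higher (median -1.35), with a summed level of 16.9 to 56.1 CPM in 129S1/SvImJ and 51.1 to 133 CPM in C57BL/6J. On chow 7 lymphocyte markers were lower and none higher (median -1.52). Ighm, the IgM heavy chain (ENSMUSG00000076617.9, chromosome 12, 113418558 to 113422730), read 1.98 to 5.05 CPM (median 2.85) in 129S1/SvImJ and 6.79 to 28.2 CPM (median 10.8) in C57BL/6J, without overlap (-1.98 ± 0.41 SE, edgeR adjusted p = 0.000645). Themis, a T-cell signalling gene (ENSMUSG00000049109.15, chromosome 10, 28668360 to 28883818), read 0.809 to 5.25 CPM (median 3.74) in 129S1/SvImJ and 6.52 to 50.4 CPM (median 26.4) in C57BL/6J and differed by -3.04 ± 0.41 (SE, edgeR adjusted p = 4.73e-06). In C57BL/6J Themis lay far above the defining T-cell genes Cd3d, Cd3e, Cd3g, Trac and Lck, which did not pass the filter and were at or under 1.54 CPM in every high-fat library, and with Ighm it made up much of the summed level there. Fitted to the 13 libraries alone, 3 lymphocyte markers were lower instead of 8, and 5 without C57BL/6J replicate 2. The filter was run anew in each such fit, so a marker missing from these counts may not have been tested.

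Stellate cell and fibrosis genes were lower in 17 of 30 tested members and higher in 2, with a median of -0.95, against 4 lower and 1 higher on chow (median -0.15). The interaction with diet was called for 0 of the 30, so a difference between the diets was shown for no single member. The summed level ran from 779 to 954 CPM in 129S1/SvImJ and from 732 to 2022 CPM in C57BL/6J. Col1a1, the main fibrillar collagen of scar (ENSMUSG00000001506.10, chromosome 11, 94936224 to 94953042), read 4.99 to 23.4 CPM (median 6.49) in 129S1/SvImJ and 9.85 to 179 CPM (median 36.2) in C57BL/6J. The C57BL/6J mice spread widely, the ranges overlapped, and the difference was -2.90 ± 0.63 (SE, edgeR adjusted p = 0.00103). Col3a1 (ENSMUSG00000026043.18, chromosome 1, 45311538 to 45349706) read 18.1 to 46.9 CPM (median 25.1) in 129S1/SvImJ and 39.9 to 318 CPM (median 75.5) in C57BL/6J and differed by -2.35 ± 0.45 (SE, edgeR adjusted p = 0.000354). Col6a3 (-1.92 ± 0.29 SE, edgeR adjusted p = 2.35e-05), the basement membrane collagen Col4a2 (-1.15 ± 0.19 SE, edgeR adjusted p = 5.6e-05) and the matricellular gene Thbs1 (-2.13 ± 0.36 SE, edgeR adjusted p = 5.58e-05) did not overlap between strains. Lrat, which stores vitamin A in resting stellate cells, was at -0.44 and not called. The 2 members that were higher were Reln (0.28) and the pericyte gene Rgs5 (0.72 ± 0.13 SE, edgeR adjusted p = 0.000132).

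Of 21 tested cell cycle genes 12 were lower and none higher (median -0.90), among them the replication licensing genes Mcm6 and Mcm2. Mcm6 read 0.468 to 1.15 CPM (median 1) in 129S1/SvImJ and 2.23 to 14.5 CPM (median 4.91) in C57BL/6J, without overlap (-2.80 ± 0.35 SE, edgeR adjusted p = 5.91e-07), and Mcm2 differed by -1.17 ± 0.24 (SE, edgeR adjusted p = 0.000346). Ccnd1, cyclin D1 (ENSMUSG00000070348.5, chromosome 7, 144929931 to 144939925), read 8.2 to 32.5 CPM (median 10.3) in 129S1/SvImJ and 19 to 92 CPM (median 37.1) in C57BL/6J, and 129S1/SvImJ replicate 3 held the highest value of its group (-1.79 ± 0.36 SE, edgeR adjusted p = 0.000586). The immediate early genes were lower in 8 of 17 and higher in 1, with Fos at -1.30 ± 0.31 (SE, edgeR adjusted p = 0.00153), Btg2 at -1.52 ± 0.31 (SE, edgeR adjusted p = 0.000558), Jund at -0.58 ± 0.10 (SE, edgeR adjusted p = 6.22e-05) and Klf2 at -0.71 ± 0.17 (SE, edgeR adjusted p = 0.00224).

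Genes of secreted liver proteins differed by group. Of 43 tested genes of complement and coagulation 29 were higher and 4 lower, with a median of 0.35, against 5 higher and 6 lower on chow (median -0.10). The interaction with diet was called for 2 of the 43. Masp1, a protease of the lectin pathway (ENSMUSG00000022887.9, chromosome 16, 23449417 to 23520815), read 294 to 335 CPM (median 329) in 129S1/SvImJ and 241 to 274 CPM (median 259.8) in C57BL/6J, without overlap (0.33 ± 0.05 SE, edgeR adjusted p = 3.88e-06). F13b, a subunit of the clot-stabilising factor XIII (ENSMUSG00000026368.6, chromosome 1, 139501702 to 139523752), read 226 to 273 CPM (median 264) in 129S1/SvImJ and 169.6 to 210.2 CPM (median 182) in C57BL/6J, again without overlap (0.47 ± 0.07 SE, edgeR adjusted p = 9.74e-06). C8g, a chain of complement C8 (ENSMUSG00000015083.11, chromosome 2, 25498651 to 25501719), read 298 to 347 CPM (median 311) in 129S1/SvImJ and 176 to 260.2 CPM (median 228) in C57BL/6J and differed by 0.48 ± 0.08 (SE, edgeR adjusted p = 2.06e-05). The 4 lower genes were Cfd, described above, the properdin gene Cfp (-0.70), the receptor gene C5ar1 (-0.80) and the factor XII gene F12 (-0.16).

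Of 30 acute-phase genes 9 were higher and 3 lower. Apcs, serum amyloid P (ENSMUSG00000026542.6, chromosome 1, 172893961 to 172895041), read 110.4 to 146 CPM (median 122) in 129S1/SvImJ and 27.8 to 53.6 CPM (median 33.1) in C57BL/6J, far apart (1.76 ± 0.17 SE, edgeR adjusted p = 4.56e-08). Saa4 (1.19 ± 0.16 SE, edgeR adjusted p = 1.95e-06) and the serpin Serpina3n (0.95 ± 0.12 SE, edgeR adjusted p = 4.97e-07) were higher, and Serpina3m (-2.18 ± 0.22 SE, edgeR adjusted p = 1.05e-07) was lower, all 3 from families of similar genes. Saa1, the inducible serum amyloid, read 43 to 166 CPM (median 52.1) in 129S1/SvImJ and 20.5 to 97.1 CPM (median 55.4) in C57BL/6J and was not called (0.25 ± 0.73 SE, edgeR adjusted p = 0.823), and neither was Hamp, which encodes hepcidin, a regulator of iron (0.51 ± 0.35 SE, edgeR adjusted p = 0.271). Without C57BL/6J replicate 6 Hamp passed the threshold, at 1.02 (adjusted p = 0.00266). Of 25 tested serpins 12 were higher and 7 lower. Serpina11 (ENSMUSG00000063232.16, chromosome 12, 103980243 to 103989957) read 98 to 124 CPM (median 118.7) in 129S1/SvImJ and 15.7 to 32.6 CPM (median 19.9) in C57BL/6J, without overlap (2.39 ± 0.11 SE, edgeR adjusted p = 8.18e-15). The alpha-1-antitrypsin copies Serpina1d (-1.56) and Serpina1e (-8.10), neighbours with near-identical sequence, were lower with edgeR adjusted p of 1.58e-07 and 2.12e-07.

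Urea cycle and amino acid breakdown had 20 of 38 genes higher and 3 lower, with a median of 0.29. Bckdhb, a subunit of the enzyme that breaks down branched-chain keto acids (ENSMUSG00000032263.14, chromosome 9, 83925145 to 84124240), read 135 to 150.4 CPM (median 142) in 129S1/SvImJ and 78.4 to 90.2 CPM (median 84.9) in C57BL/6J. The 129S1/SvImJ mice all lay well above the C57BL/6J mice, by 0.77 ± 0.05 (SE, edgeR adjusted p = 2e-12). Mut, methylmalonyl-CoA mutase, differed by 0.49 ± 0.06 (SE, edgeR adjusted p = 2.88e-07), Prodh, proline dehydrogenase, by 0.66 ± 0.11 (SE, edgeR adjusted p = 2.2e-05), and Shmt1, a serine hydroxymethyltransferase, by 0.48 ± 0.09 (SE, edgeR adjusted p = 0.00016). Among insulin and IGF genes 7 of 23 were higher and 2 lower: Ghr, the growth hormone receptor (ENSMUSG00000055737.12, chromosome 15, 3317760 to 3583492), read 978 to 1196 CPM (median 1022) in 129S1/SvImJ and 623 to 916 CPM (median 764) in C57BL/6J (0.44 ± 0.08 SE, edgeR adjusted p = 8.59e-05), and Igfbp3, an IGF carrier, differed by 0.87 ± 0.15 (SE, edgeR adjusted p = 5.32e-05). Of 9 hepatocyte markers 6 were higher and none lower (median 0.47), the direction of most called complement, coagulation and amino acid genes, while the macrophage, lymphocyte and stellate cell markers above lay the other way and the endothelial markers were split. The part of cell composition in these differences was not tested.

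Cytosolic ribosomal protein genes were higher in 52 of 78 tested members and lower in 4, with a median of 0.26, whereas on chow 6 were higher and 6 lower (median 0.00). The interaction with diet was called for 7 of the 78. Rpl15 (ENSMUSG00000012405.16, chromosome 14, 18267823 to 18271391) read 63 to 74 CPM (median 70.2) in 129S1/SvImJ and 33.6 to 40 CPM (median 36.8) in C57BL/6J, a difference of 0.91 ± 0.07 (SE, edgeR adjusted p = 1.53e-10). Rps7 (ENSMUSG00000061477.4, chromosome 12, 28630854 to 28635953) read 74 to 86.2 CPM (median 78.2) in 129S1/SvImJ and 40.2 to 52 CPM (median 45.2) in C57BL/6J and differed by 0.77 ± 0.06 (SE, edgeR adjusted p = 7.5e-11), and Rps16 differed by 0.80 ± 0.08 (SE, edgeR adjusted p = 4.85e-09). These genes did not overlap between strains. Rpl34 was lower, at 30.4 to 34.9 CPM (median 32) in 129S1/SvImJ and 47 to 58.6 CPM (median 50) in C57BL/6J (-0.68 ± 0.06 SE, edgeR adjusted p = 2.15e-09). Ribosomal protein genes have many processed pseudogenes, so their counts are uncertain. Over the other scalings, tests and filters the number higher stayed between 50 and 55. Of 74 nuclear genes of oxidative phosphorylation 19 were higher and 1 lower, with a median of 0.06.

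**Figure D4:**
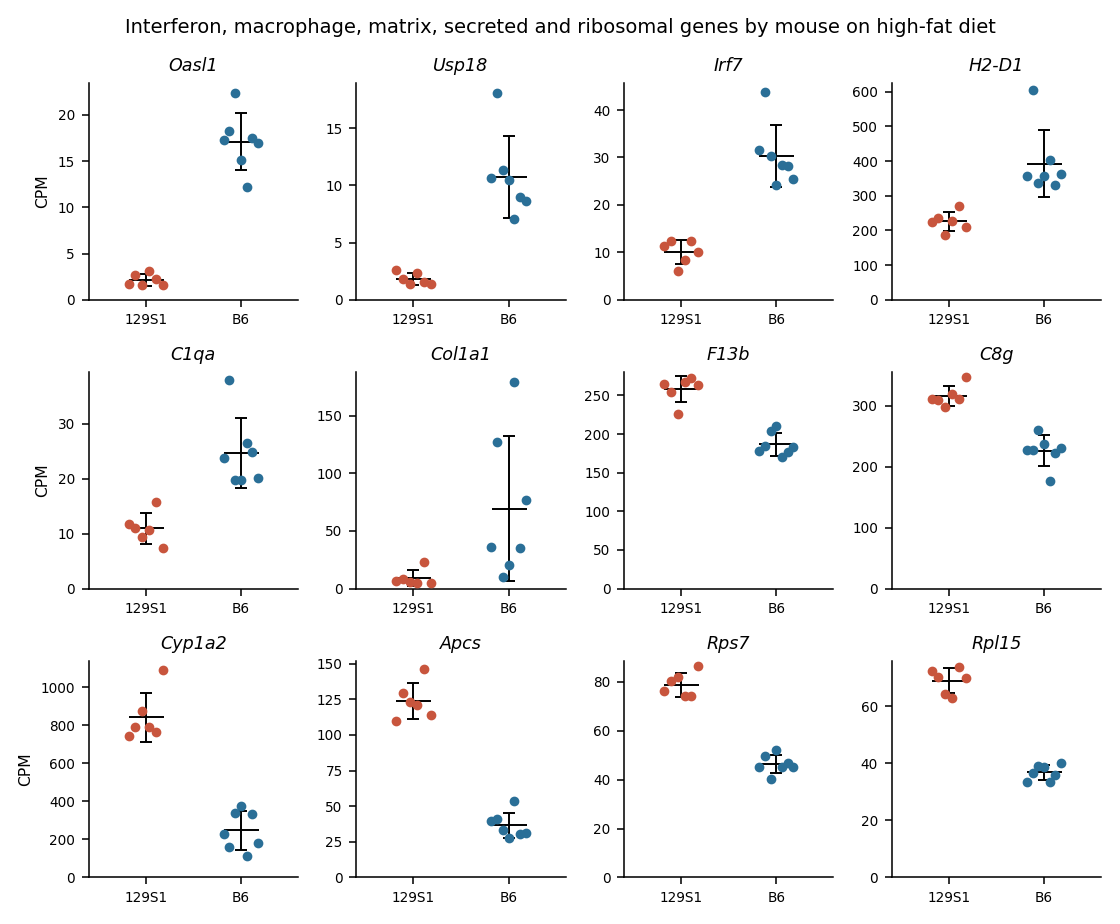
Level in CPM (vertical axes, from 0) of 12 genes in each mouse on high-fat diet, with 129S1/SvImJ in red (n = 6) and C57BL/6J in blue (n = 7); black lines give the mean and SD. Interferon-stimulated, MHC, macrophage and collagen genes lie lower in 129S1/SvImJ, and F13b, C8g, Cyp1a2, Apcs, Rps7 and Rpl15 lie higher, with overlap only for Col1a1.

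Among genes whose level differs between male and female liver, which growth hormone pulses set, calls leaned upward for male-biased and downward for female-biased genes. Of 23 male-biased genes 8 were higher and 3 lower in 129S1/SvImJ. The summed level of these genes had a median of 7636 CPM there and 9902 CPM in C57BL/6J, with overlapping ranges. Of 22 female-biased genes 12 passed the filter, and 1 was higher and 7 lower (median -1.51). Cyp4a12a, a male-biased fatty acid hydroxylase with a near-identical copy (ENSMUSG00000066071.6, chromosome 4, 115299046 to 115332815), read 483 to 649 CPM (median 513) in 129S1/SvImJ and 206 to 257 CPM (median 222) in C57BL/6J, without overlap (1.20 ± 0.10 SE, edgeR adjusted p = 1.42e-10). Abcd2, a peroxisomal transporter (ENSMUSG00000055782.9, chromosome 15, 91145871 to 91191799), read 0.719 to 3.83 CPM (median 2.11) in 129S1/SvImJ and 5.48 to 56.4 CPM (median 10.6) in C57BL/6J. It differed by -2.93 ± 0.57 (SE, edgeR adjusted p = 0.000402), or -2.23 (adjusted p = 0.000327) without C57BL/6J replicate 5, which held 56.4 CPM. Prom1 (-2.11 ± 0.49 SE, edgeR adjusted p = 0.00121) and Cyp2c40 (-2.57 ± 0.67 SE, edgeR adjusted p = 0.00391, with close relatives) were lower from low levels. Both were at or under 0.511 CPM in every 129S1/SvImJ library on high-fat diet. They passed the filter through C57BL/6J and could only be called lower. Fitted to the 13 libraries alone, with the filter run anew so that fewer members may have been tested, 4 female-biased genes were lower instead of 7.

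Major urinary proteins, pheromone carriers encoded by a cluster of near-identical genes on chromosome 4, were shared out unevenly, with 4 of 17 tested genes higher and 6 lower. Mup11 read 3.15 to 6.54 CPM (median 5.28) in 129S1/SvImJ and 38.8 to 1481 CPM (median 1089) in C57BL/6J, and Mup20, the male pheromone darcin, read 168 to 572 CPM (median 208) in 129S1/SvImJ and 882 to 1770 CPM (median 1420) in C57BL/6J. Mup21 lay the other way, at 371 to 564 CPM (median 459) in 129S1/SvImJ and 25 to 149 CPM (median 108) in C57BL/6J. The edgeR adjusted p of the 3 was 3.42e-08, 7.7e-07 and 1.13e-06, but reads of one copy can be counted on another, and strains carry different copies.

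Of 34 drug-metabolising cytochromes 14 were higher and 7 lower (median 0.20). Cyp1a2, which oxidises caffeine (ENSMUSG00000032310.4, chromosome 9, 57676937 to 57683703), read 745 to 1087 CPM (median 791) in 129S1/SvImJ and 114 to 376 CPM (median 231) in C57BL/6J, without overlap and with a difference of 1.76 ± 0.21 (SE, edgeR adjusted p = 6.3e-07). Within the Cyp2c cluster Cyp2c39 (4.49) and Cyp2c67 (1.61) were higher and Cyp2c55 (-2.79) was lower, all uncertain for their similarity (edgeR adjusted p of 3.06e-09, 9.62e-11 and 1.89e-07). Of 45 conjugating enzymes 13 were higher and 10 lower. Tpmt, thiopurine methyltransferase (ENSMUSG00000021376.11, chromosome 13, 47022482 to 47044737), read 129 to 148 CPM (median 144) in 129S1/SvImJ and 47.1 to 70.6 CPM (median 63.9) in C57BL/6J, without overlap (1.19 ± 0.09 SE, edgeR adjusted p = 5.26e-11). At the Ugt1a locus, whose genes share their last exons, Ugt1a9 was higher (3.73 ± 0.35 SE, edgeR adjusted p = 4.23e-08) and Ugt1a1 lower (-1.12 ± 0.08 SE, edgeR adjusted p = 5.74e-11). Antioxidant genes of the NRF2 programme were split, 7 of 28 higher and 12 lower, with the glutathione synthesis gene Gclm at 0.45 ± 0.05 (SE, edgeR adjusted p = 1.89e-07), Prdx6 at 0.33 ± 0.07 (SE, edgeR adjusted p = 0.00027), Nqo1 at -1.18 ± 0.21 (SE, edgeR adjusted p = 0.000102) and Srxn1 at -0.87 ± 0.19 (SE, edgeR adjusted p = 0.000898).

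The widest differences were genes nearly silent in one strain by their counts. For those low in 129S1/SvImJ, loss of its reads on the C57BL/6J genome mm10 was not tested. Myom2, a protein of the muscle M-band (ENSMUSG00000031461.4, chromosome 8, 15057653 to 15133541), read 11.9 to 19.3 CPM (median 15) in 129S1/SvImJ and 0 CPM in every mouse in C57BL/6J. With 1002 counts against 0 it was at least 398-fold higher in 129S1/SvImJ, taking 3 counts over the group as the floor. Trim12a, of a family of antiviral restriction factors (ENSMUSG00000066258.13, chromosome 7, 104299894 to 104315466), read 10.5 to 15.4 CPM (median 14) in C57BL/6J and 0 CPM in every mouse in 129S1/SvImJ and was at least 292-fold lower in 129S1/SvImJ, though it has near copies. Cebpe, a transcription factor of granulocytes (ENSMUSG00000052435.7, chromosome 14, 54710360 to 54712174), was at least 164-fold lower, and Zfp982, a zinc finger gene among close relatives, at least 157-fold lower.

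Other wide differences upward included Ctse, the protease cathepsin E (ENSMUSG00000004552.16, chromosome 1, 131638306 to 131675505), which read 45.6 to 80.7 CPM (median 70.8) in 129S1/SvImJ and 0.119 to 3.44 CPM (median 1.49) in C57BL/6J, a difference of 5.57 ± 0.28 (SE, edgeR adjusted p = 3.13e-13). Klhl33 (6.03), Wdr72 (5.33) and Nuggc (5.73) were higher as well, with edgeR adjusted p of 5.11e-16, 1.97e-13 and 1.61e-12. Pde6h, a phosphodiesterase subunit of cone cells, had 426 counts in 129S1/SvImJ and 2 in C57BL/6J, a ratio of 254 with a counting interval of 69.9 to 2103. Also higher were Mettl7a3 (7.22), Eif3j2 (6.15), Ren1 (6.67), Cox6b2 (5.81), Gm4737 (5.60) and Obp2a (5.10), whose counts are uncertain for their near copies. Downward, Camk2b, a calcium-dependent kinase (ENSMUSG00000057897.14, chromosome 11, 5969644 to 6066362), read 7.51 to 16.4 CPM (median 13.6) in C57BL/6J and 0 to 0.166 CPM (median 0) in 129S1/SvImJ. Its 3 counts in 129S1/SvImJ against 1034 gave a ratio of 289, with a counting interval of 98.7 to 1404. Lrit2 (-6.55), Acpp, prostatic acid phosphatase (-5.99), Crybg2 (-6.29) and Ugt2b38 (-6.61), the latter pair uncertain for related genes, were lower too. Where a few counts made up the silent group, 1 library moved the fitted difference by over 1.5 times: Camk2b from -7.85 to -8.76 without 129S1/SvImJ replicate 1, Acpp to -6.61 without replicate 5, Lrit2 to -9.16 without replicate 3, Cox6b2 to 6.55 without C57BL/6J replicate 2, and Ren1 to 7.26 without replicate 4. Serpina1e moved from -8.10 to -7.44 without C57BL/6J replicate 6, which held the highest value of its group.

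Called genes with over 4-fold differences in one direction lay near each other in 19 runs of 3 or more genes at most 500 kb apart. Over 4-fold were 173 of the higher and 288 of the lower genes, and whether 19 runs exceed a random order was not tested. Each span reaches from the first to the last gene of its run, so the genes at its ends are called by construction. Many lay in clusters of related genes, such as 6 genes at the major urinary protein cluster on chromosome 4 (61452244 to 62120929, lower, 16 genes tested in the span) and 4 Trim genes on chromosome 7 (104244457 to 104507849, lower, 7 tested). On chromosome 12 (109541001 to 109749460) all 4 tested genes were higher, namely Meg3, Rian, Mirg and a predicted gene of the imprinted cluster of noncoding RNAs. On chromosome 15 (83604999 to 84187236) all 3 tested genes were lower, namely Scube1 and the lipase-family genes Pnpla5 and Pnpla3. Over the autosomes and chromosome X the share of tested genes called ran from 30.8% on chromosome X to 43.2% on chromosome 14.

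Tcf7l2, the gene in the series title, encodes a transcription factor of the Wnt pathway (ENSMUSG00000024985.18, chromosome 19, 55741820 to 55933654). It read 44.6 to 60.3 CPM (median 53.7) in 129S1/SvImJ and 40.4 to 55.1 CPM (median 48.4) in C57BL/6J. The ranges overlapped and the difference was not called (0.14 ± 0.08 SE, edgeR adjusted p = 0.179). Of 29 tested Wnt and TCF pathway genes 4 were higher and 8 lower, with a median of -0.09, and 5 were lower without C57BL/6J replicate 2. Fzd6, a Wnt receptor (ENSMUSG00000022297.15, chromosome 15, 39006034 to 39038188), read 0.719 to 2.13 CPM (median 1.84) in 129S1/SvImJ and 7.06 to 13.9 CPM (median 12.5) in C57BL/6J, without overlap and with a difference of -2.83 ± 0.21 (SE, edgeR adjusted p = 5.68e-11). The related factor Tcf7l1 (-0.63 ± 0.12 SE, edgeR adjusted p = 0.000259) and the kinase gene Gsk3b (-0.23 ± 0.05 SE, edgeR adjusted p = 0.00101) were lower, and Lgr4, a receptor of R-spondins, was higher (0.44 ± 0.11 SE, edgeR adjusted p = 0.00248). Axin2, a feedback target of the pathway (ENSMUSG00000000142.15, chromosome 11, 108920349 to 108950783), read 7.84 to 13.5 CPM (median 9.98) in 129S1/SvImJ and 8.58 to 22.9 CPM (median 17.3) in C57BL/6J. Its call (-0.73 ± 0.25 SE, edgeR adjusted p = 0.0269) ended without 129S1/SvImJ replicate 1, 4 or 6 or C57BL/6J replicate 1 or 2, with adjusted p of 0.0507 to 0.0616.

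Among other genes followed for their known roles, Adam11, a surface protein of the ADAM family (ENSMUSG00000020926.16, chromosome 11, 102761439 to 102780262), read 135 to 214 CPM (median 191) in 129S1/SvImJ and 44.8 to 136 CPM (median 83.2) in C57BL/6J and differed by 1.11 ± 0.18 (SE, edgeR adjusted p = 4.27e-05). Nnt, the mitochondrial transhydrogenase that is partly deleted in C57BL/6J (ENSMUSG00000025453.18, chromosome 13, 119335448 to 119408997), read 2.66 to 3.86 CPM (median 3.54) in 129S1/SvImJ and 3.63 to 5.58 CPM (median 4.37) in C57BL/6J and was not called (-0.37 ± 0.21 SE, edgeR adjusted p = 0.166), or called at 0.0379 in a fit to the 13 libraries alone. Counts per gene do not show single exons, so the deletion cannot be seen in them. Fgf21, a hormone of liver (-0.65, adjusted p = 0.367), Lepr (0.05, 0.913) and Gpnmb, a gene of lipid-laden macrophages (-2.01, 0.116), were not called by edgeR. Without 129S1/SvImJ replicate 5 Gpnmb passed, at -3.06 (adjusted p = 0.0435), and Trem2, of the same macrophages, did not pass the filter.

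Whether the strain difference on high-fat diet was that of chow was asked with the chow libraries, which share no mice with it. On chow 3636 genes (25.0%) were called. Of the genes called on high-fat diet 2609 were also called on chow in the same direction, which is 48.5% of the high-fat calls and 71.8% of the chow calls, and 11 were called in opposite directions. Of the high-fat calls 90.3% had the same sign on chow. Fitted separately, so that the comparisons shared no estimate of spread, 2305 genes were shared, 47.8% and 70.4% of the calls. The difference between diets itself passed the interaction test for 43 genes (0.296%), 25 of them more positive on high-fat diet.

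Of these 43, 11 were called in each of the 13 fits without 1 high-fat library, and the total ran from 12 (without C57BL/6J replicate 1) to 170 (without C57BL/6J replicate 4), with 101 without C57BL/6J replicate 6 and 12 to 25 in the other 11 fits. Fads1 had a strain difference of -0.09 on chow and -1.44 on high-fat diet (interaction -1.34, edgeR adjusted p = 0.0082), with chow means of 628 and 670.3 CPM in 129S1/SvImJ and C57BL/6J. Cyp51 went from -0.37 to -1.75 (-1.38, 0.0182), and the sterol reductase gene Tm7sf2 from 0.24 to -0.54 (-0.78, 0.0297). With Mvd, a mevalonate decarboxylase (-2.52, 0.0431), 3 cholesterol genes were among the 43. Fads1, Cyp51 and Rps7 were called in all 13 of these fits, Tm7sf2 in 11 and Mvd in 3. Rps7 was one of 7 ribosomal protein genes, from 0.30 on chow to 0.77 on high-fat diet (0.47, 0.0196).

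Nnmt, which methylates nicotinamide (ENSMUSG00000032271.13, chromosome 9, 48591877 to 48605153), had the widest interaction among the named genes, 3.25 (0.0431 by edgeR): the chow means were 3.29 and 63.7 CPM, and on high-fat diet it read 9.19 to 31.1 CPM (median 24.1) in 129S1/SvImJ and 9.92 to 82.4 CPM (median 45.2) in C57BL/6J. The interaction was called in 4 of the 13 fits without 1 library. Its strain difference on high-fat diet (-1.03 ± 0.38 SE, edgeR adjusted p = 0.0382) lost its call without any one of 129S1/SvImJ replicates 1, 2, 3, 4 or 6 or C57BL/6J replicates 1, 3, 4 or 6 (adjusted p of up to 0.0909), and with the replicate number as a block it had an adjusted p of 0.0581. Tpm2, a tropomyosin, went from -1.45 on chow to -4.21 on high-fat diet (-2.76, 0.049). Of the 13 fits, Fh1 was called in the interaction in 8, Tifa in 5, Tpm2 and Stap1 in 3 and Extl1 in 2, and Tuba1c, Crybg3 and Gm33543 in all. Stap1 and Extl1 were higher on both diets and less so on high-fat diet, Tifa and Crybg3 were lower on both and less so on high-fat diet, and Tuba1c and the predicted gene Gm33543 were called in opposite directions. Fh1, a fumarate hydratase, was higher on high-fat diet (0.44) and was not called on chow (-0.24). Genes with wide differences and high spread, such as Cfd (-2.35 on chow, -10.48 on high-fat diet, interaction adjusted p = 0.125), Cidec (0.134) and Sqle (0.0773), were not called in the interaction.

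**Figure D5:**
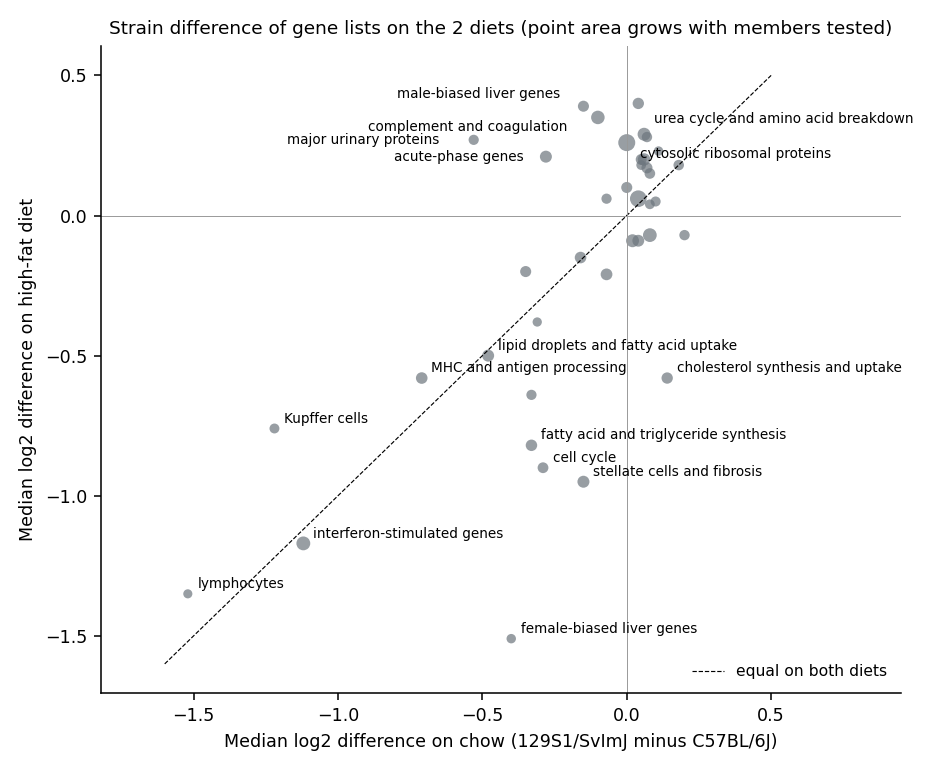
Median log2 difference between strains of each gene list with 10 or more tested members, on chow (horizontal axis) and on high-fat diet (vertical axis), with point area growing with the number of members; the dashed line marks equal medians. Interferon-stimulated genes lie near the line (-1.12 and -1.17), and cholesterol synthesis (0.14 and -0.58), stellate cell genes (-0.15 and -0.95) and complement and coagulation (-0.10 and 0.35) lie away from it; the difference between list medians was not tested.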

How the data were processed

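RNA-seq of liver from 24 mice, 1 library per mouse, was used, and groups were taken from the strain and diet in the labels. The authors deposited raw gene counts, as whole numbers per gene, and a matrix of variance-stabilized values on a log2-like scale, which served 1 alternative. STAR 2.5.4b, Bowtie2 2.2.3, Trimmomatic 0.36 and DESeq2 1.26.0, with build mm10, are listed in the submitters' processing notes. Which annotation release and strand setting the authors counted with is not given in the sources used here. Of 53677 identifiers 53582 matched GENCODE M21 (mm10), which gave symbols and coordinates, and the other 95 held 0.0075% of the counts. Mitochondrially encoded genes are not analysed here, and some genes that the naming rule selected are not reported here.

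Counts were fitted in R 4.3.3 with edgeR 4.0.16 (filterByExpr, TMM scaling, robust quasi-likelihood test, two-sided, edgeR's default prior count, Benjamini-Hochberg over all 14533 genes tested). The fit held all 24 libraries with 1 mean per group. Contrasts were strain on high-fat diet, strain on chow, and their difference. Total counts of 6707013 to 13124881 per library limit the precision of genes with few counts. Intervals of ratios are exact 95% intervals that cover counting error only.

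On simulated counts (14365 genes) the fit for strain on high-fat diet called 58.2% of the genes simulated at 1.5-fold, 79.1% at 2-fold and 95.5% at 4-fold, and 10 of its 166 calls were false. The changed genes were drawn from those with a mean of 10 or more counts, and all others had no difference. These shares therefore do not cover genes with fewer counts, nor data in which many genes differ.

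The members and gene lists were chosen with earlier results of these data known. Named genes are the 12 protein-coding genes per direction with the largest called difference, a mean of 5 CPM or more in the strain with more, and no overlap, then from each list up to 4 called members by p, up to 6 interaction genes per direction, and fixed genes of known role. Others are named in the text with their values as exceptions of a list, chosen after these were seen. Alternatives were DESeq2 1.42.0, limma 3.58.1 on the deposited log2 values, other scalings and filters, a fit to the 13 libraries alone, the replicate number as a block, Rn7sk as a covariate or a split, and leaving out libraries. Splitting the high-fat libraries at 3000 CPM of Rn7sk and the separate fits were chosen after seeing the data. The labels do not say that replicate numbers pair the mice. The mouse identifiers share no number between groups and set the mice of each group in 2 sets of unstated meaning.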

Additional observations from a re-analysis of the deposited data

Results flagged for a closer look

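Within a strain, 48 of the 324 sets of values examined (14.8%), for the named genes in each high-fat group, had 1 mouse standing apart from the others by Dixon's 95% criterion. Chance flags about 1 in 20 groups, and mice of a group share their libraries over genes, so flags of 1 library are not independent. C57BL/6J replicate 2 held the highest value of its group for C1qa (37.9 CPM), C1qb (61.9 CPM), H2-D1 (604 CPM), H2-T22 (72.7 CPM), Irf7 (43.8 CPM), Mpeg1 (251 CPM) and Usp18 (18.1 CPM). C57BL/6J replicate 4 held the lowest value of its group for Camk2b (7.51 CPM) and Fzd6 (7.06 CPM). C57BL/6J replicate 5 held the highest value of its group for Abcd2 (56.4 CPM), Apoa4 (4800 CPM), Cx3cr1 (7.21 CPM), Cyp2c55 (6.64 CPM), Fabp4 (24.9 CPM) and Hmgcs1 (297 CPM). C57BL/6J replicate 6 held the highest value of its group for Gm33543 (18.6 CPM), Hamp (423 CPM), Igkc (6.52 CPM) and Serpina1e (6840 CPM) and the lowest value of its group for Serpina3m (124 CPM). C57BL/6J replicate 7 held the highest value of its group for G6pc (460 CPM).

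129S1/SvImJ replicate 1 held the highest value of its group for Cidea (0.0828 CPM). 129S1/SvImJ replicate 2 held the highest value of its group for Tuba1c (10.8 CPM). 129S1/SvImJ replicate 3 held the highest value of its group for Ccnd1 (32.5 CPM), Cidec (3.69 CPM), Fgf21 (3.96 CPM), Lrit2 (0.36 CPM), Obp2a (78 CPM), Plin2 (533 CPM), Srxn1 (34.3 CPM) and Wdr72 (16.3 CPM) and the lowest value of its group for Adam11 (135 CPM), Akr1d1 (171 CPM), Masp1 (294 CPM) and Shmt1 (196 CPM). 129S1/SvImJ replicate 5 held the highest value of its group for Col1a1 (23.4 CPM), Col3a1 (46.9 CPM), Csf3r (4.52 CPM), Gpnmb (2.48 CPM), Klf2 (9.12 CPM), Lyz2 (47.7 CPM) and Saa1 (166 CPM). 129S1/SvImJ replicate 6 held the highest value of its group for Cyp2c70 (1490 CPM), Cyp4a12a (649 CPM), Ghr (1200 CPM), Gm4737 (73.2 CPM), Lgr4 (169 CPM) and Mettl7a3 (18.7 CPM).

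Between the diets, the strain difference of the genes given here passed the edgeR interaction test, written as the log2 difference on high-fat diet minus that on chow. It was negative for Tpm2 (-2.76), Mvd (-2.52), Stap1 (-1.48), Cyp51 (-1.38), Fads1 (-1.34), Tuba1c (-1.08), Extl1 (-1.04) and Tm7sf2 (-0.783). It was positive for Rps7 (0.466), Fh1 (0.682), Crybg3 (0.824), Tifa (1.46), Gm33543 (2.22) and Nnmt (3.25).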

How the results depend on the processing

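No named gene that was called, in the reported fit or under an alternative, reversed its direction under the alternatives run. Among named genes not called, Apoa4, Fgf21, G6pc, Lepr, Saa1 and Tcf7l2 changed sign under at least 1 alternative, as G6pc did from 0.114 to -0.235 without 129S1/SvImJ replicate 6 and Saa1 from 0.249 to -0.219 without replicate 5. The 5375 genes called on high-fat diet became 4831 to 5554 without 1 library. Under the other fits that kept all 13 high-fat libraries they became 4996 (those 13 alone) to 5822 (DESeq2). Upper-quartile scaling moved the share of calls that were higher from 48.4% to 42.7%. Among the high-fat libraries under 3000 CPM of Rn7sk (2 against 2), 465 genes were called (218 higher, 247 lower), and among those above (4 against 5) 3573 (1727 higher, 1846 lower), with fewer libraries in each fit. The largest gap in Rn7sk leaves 22 libraries below and 2 above, all of 129S1/SvImJ on chow, so no value above it could be had.

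The 43 interaction genes (25 higher, 18 lower) became 12 to 170 without 1 library (8 to 96 higher, 4 to 74 lower), 23 (15 and 8) without the library with adipocyte transcripts, 121 (75 and 46) with Rn7sk as a covariate, 196 (127 and 69) below the largest Rn7sk gap, and 296 (165 and 131) with DESeq2. Upper-quartile scaling turned the balance, to 21 higher and 26 lower (from 58.1% to 44.7% higher), and no filter moved it to 72.7%. The cause of these shifts was not tested. With the replicate number as a block 5188 genes were called on high-fat diet and 17 in the interaction (10 and 7). Same-numbered mice did not deviate together (correlations of -0.21 to 0.17, and 1 of 6 matched its own number best), so the numbers do not pair the mice. Of 164 named genes 152 were called, 148 of them in every fit without 1 library. Leaving out chow libraries was not run.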

Other observations

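Other gene groups differed as follows on high-fat diet. Of 14 tested targets of the sterol sensor LXR 4 were higher in 129S1/SvImJ, among them Scarb1, the HDL receptor (0.89), and the canalicular cholesterol pump genes Abcg8 (0.69) and Abcg5 (0.53). As many were lower, with Pltp, the phospholipid transfer protein, at -1.84. Of 7 tested cholangiocyte markers 3 were lower, namely Sox9 (-1.69), Spp1 (-1.80) and Epcam (-2.06), and none was higher (median -0.79). Of 11 tested genes of lipid-associated macrophages 4 were lower, among them Cd63 (-1.16) and Lgals3 (-1.08), and 1 was higher.

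Among 19 clock genes 4 were higher and 1 lower. Of 16 iron genes 3 were higher and 3 lower, with Hmox1, heme oxygenase, at -0.85. Of 23 genes of the unfolded protein and integrated stress responses 1 was higher and 2 were lower. Of 14 carboxylesterases 5 were higher and 2 lower, with Ces1c at 0.90 and Ces1g at -0.99, genes of a family of similar copies. Pericentral hepatocyte genes were split (5 of 18 higher, 6 lower), as were periportal ones (5 of 18 higher, 3 lower), and 4 of 20 hepatocyte transcription factor genes were higher, with the xenobiotic receptor Nr1i3 at 0.69, and none lower. For comparison, 17.9% of all genes tested were higher and 19.1% lower.

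The noncoding gene Rn7s2, on chromosome 12 and chosen after its values were seen, read 274.9 ± 61.6 CPM (SD, n = 6) in 129S1/SvImJ and 0.043 CPM on average in C57BL/6J on high-fat diet. Its counts are uncertain, since reads can be placed on near copies of such RNA genes.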
